A study of Mus musculus with 4 samples.

Results

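The 10 genes described here control the G1 phase of the cell cycle, and their transcripts were measured in cells of the mouse bulge, the part of the hair follicle that houses its stem cells. They form 3 families: the CDK inhibitors Cdkn1a, Cdkn1b, Cdkn2b and Cdkn2c, the D cyclins Ccnd1, Ccnd2 and Ccnd3, and the pocket proteins Rb1, Rbl1 and Rbl2. The 10 genes were taken by name from the 55536 genes of the count table. All 10 were among the 14259 genes with enough counts to be tested.

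The study sequenced 4 libraries from skin of mice on a C57BL/6 background. The 2 knockout libraries came from Cdh5CreERT2; Alk1 flox/flox mice, in which the endothelial Cdh5 promoter drives a tamoxifen-inducible Cre against Alk1 (Acvrl1), a BMP receptor. The 2 control libraries came from littermates without Cre, and the sources used here do not say whether these carried the floxed allele. Knockouts and controls alike were injected with tamoxifen on postnatal day 17, at 100 µg per g of body weight, and their cells were taken on day 20. Sample titles number the samples of a group 1 and 2 (as in "control mice 1") and do not say how many mice went into each. The p-values measure only the spread between these samples.

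In G1, D cyclins bind the kinases CDK4 and CDK6 and start the phosphorylation of pocket proteins, which otherwise hold E2F transcription factors in check. INK4 inhibitors such as those encoded by Cdkn2b and Cdkn2c bind these kinases directly, while the CIP/KIP inhibitors encoded by Cdkn1a and Cdkn1b act on cyclin-CDK complexes, mainly those of CDK2. Bulge stem cells spend most of the hair cycle at rest and divide briefly when a new growth phase begins, and Cdkn1a, Cdkn1b and the pocket proteins are textbook regulators of such rest.

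Library depth ran from 16326906 to 29130974 counts. Expression is given as CPM, the count scaled by the library total and by edgeR's TMM normalization factor. The 10 bulge keratinocyte markers were all present, with summed levels of 68937 to 77792 CPM in knockouts and 62804 to 72531 CPM in controls. Markers of other cells were also present in each library. The 7 interfollicular differentiation genes summed to 3776 to 8182 CPM in knockouts and 4282 to 12501 CPM in controls, and the 7 blood endothelial genes to 5.75 to 17.8 CPM in knockouts and 6.37 to 20.4 CPM in controls. No marker of these lists was at 0 in all 4 libraries. The targeted gene Acvrl1 had 17.9 and 23.1 CPM in knockouts and 21.6 and 24.3 CPM in controls. Deletion was directed at endothelium, so this level does not check the labels.

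RefSeq promoter windows (GRCm38.p6, spanning an annotated start and lying mostly before it) were found for 7 of the 10 genes, in 10 windows of 300 bases. None was found for Ccnd1, Ccnd2 and Rb1, so these were not searched. Those of Cdkn1a and Rbl1 are shown because the genes are classic targets of p53 and of E2F. That of Cdkn2b is shown beside Cdkn1a, a pair picked after their levels were seen, and no shared control of the pair was tested. All are written 5′ to 3′ on the strand of the gene. In the window at the upstream start of Cdkn1a (chr17:29090729-29091028, plus strand), capitals mark a p53 element, searched as a pair of adjacent p53 decamers with both cores intact and at most 1 other mismatch.
Cdkn1a upstream start: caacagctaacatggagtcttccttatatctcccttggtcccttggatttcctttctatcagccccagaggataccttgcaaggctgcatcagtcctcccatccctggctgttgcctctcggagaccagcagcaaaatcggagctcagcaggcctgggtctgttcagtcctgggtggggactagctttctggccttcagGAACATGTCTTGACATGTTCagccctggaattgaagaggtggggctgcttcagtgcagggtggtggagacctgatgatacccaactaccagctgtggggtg
In the windows at the downstream start of Cdkn1a (chr17:29093519-29093818, plus strand) and at the start of Cdkn2b (chr4:89310983-89311282, minus strand), capitals mark the longest run that the pair share.
Cdkn1a downstream start: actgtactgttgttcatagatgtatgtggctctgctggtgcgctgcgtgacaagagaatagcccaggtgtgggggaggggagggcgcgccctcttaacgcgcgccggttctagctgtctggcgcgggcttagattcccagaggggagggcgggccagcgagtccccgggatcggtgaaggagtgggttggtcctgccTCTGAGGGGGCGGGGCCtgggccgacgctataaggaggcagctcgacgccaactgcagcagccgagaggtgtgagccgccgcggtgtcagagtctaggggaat
Cdkn2b: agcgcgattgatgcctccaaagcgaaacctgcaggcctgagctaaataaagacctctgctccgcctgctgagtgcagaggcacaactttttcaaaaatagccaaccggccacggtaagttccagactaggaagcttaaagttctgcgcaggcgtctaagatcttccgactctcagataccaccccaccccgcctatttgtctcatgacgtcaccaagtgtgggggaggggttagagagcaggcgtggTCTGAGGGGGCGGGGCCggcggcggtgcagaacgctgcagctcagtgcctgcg
In the window of Rbl1 (chr2:157204485-157204784, minus strand), capitals mark the E2F motif TTTCGCGC.
Rbl1: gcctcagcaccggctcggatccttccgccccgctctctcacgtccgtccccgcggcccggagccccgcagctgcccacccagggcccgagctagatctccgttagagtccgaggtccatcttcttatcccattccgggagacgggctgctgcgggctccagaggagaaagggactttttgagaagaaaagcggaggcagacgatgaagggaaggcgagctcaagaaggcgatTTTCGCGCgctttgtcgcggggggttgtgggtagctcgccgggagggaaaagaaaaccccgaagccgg

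A p53 element of this definition was in 18 of 32851 mouse windows of the same length (0.0548%), and among the 10 members' windows in that of the upstream Cdkn1a start. The run shared by Cdkn1a and Cdkn2b is 17 bases long and holds a GC box (the G-rich motif of Sp1-like factors). It was chosen as the longest shared run of this pair, so its count over all windows is not given. The GC box alone was in 7.01% of all windows, and among the members it was also present in Ccnd3. The E2F motif TTTCGCGC, on either strand, was in 0.323% of all windows and, among the members, in that of Rbl1. A second E2F form, TTTGGCGC, was in 0.514% of all windows and in no member's window. The cell cycle element TTTGAA, on either strand, was in 17.9% of all windows, and in those of Cdkn2b and Rbl2. These matches are descriptions of the letters and not evidence of binding.

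No member passed the threshold. With edgeR's quasi-likelihood test and an adjusted p under 0.05 over all genes, 0 of the 10 members were called, against 0.00701% of the 14259 tested genes. DESeq2, which called 0.58% of the genes it tested, and limma-voom also called 0 members. At an unadjusted edgeR p under 0.05 there was 1 member, Ccnd2, against 10.7% of tested genes. The groups did not overlap for 3 members (Ccnd2, Rbl1 and Rbl2), while 44.9% of all tested genes had groups that did not overlap. The median log2 fold change (knockout over control) of the 10 members was -0.07, against -0.02 for all tested genes, and 7 members were below 0, as were 52.5% of tested genes. In bulk samples, fewer cells of a type and less RNA per cell cannot be told apart.

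**Figure D1:**
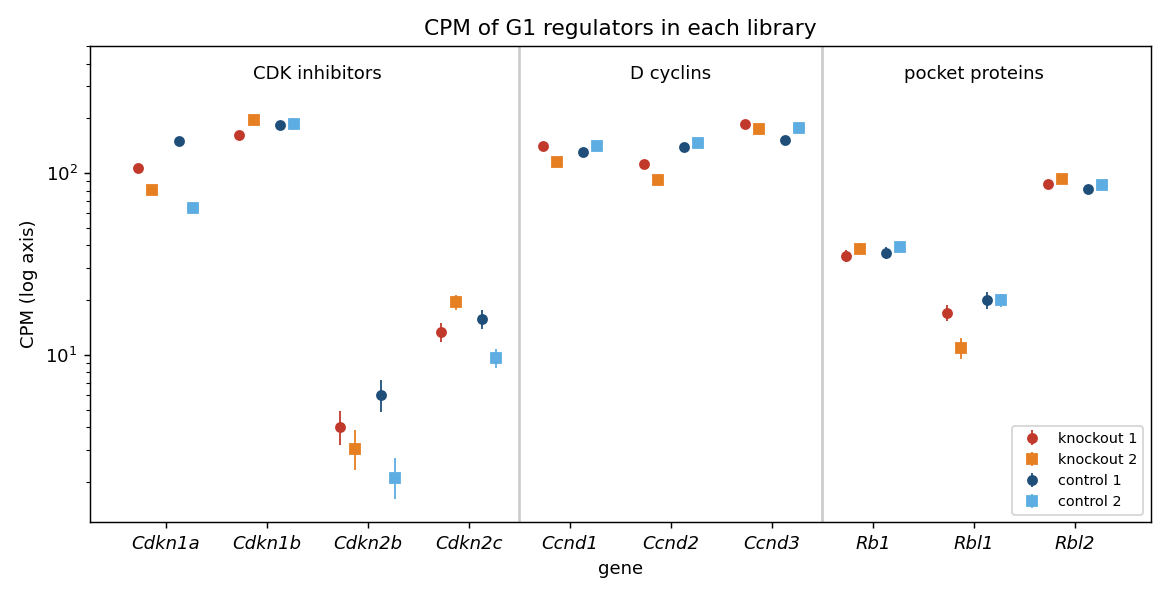
CPM (log axis) of the 10 genes in each library, knockouts in red and orange and controls in dark and light blue; bars are exact 95% Poisson intervals, which cover counting error only. Ccnd2 and Rbl1 sit lower in both knockouts than in both controls, while the widest gap for Cdkn1a and Cdkn2b lies between the 2 controls. For Rbl1, the bar of knockout 1 overlaps those of both controls.

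Among the CDK inhibitors, Cdkn1b was the most even and Cdkn1a the most uneven of the abundant members. Cdkn1b (ENSMUSG00000003031, chromosome 6, 134920401 to 134925513, GRCm38) encodes p27, an inhibitor known for holding cells at rest. It measured 162 and 196 CPM in knockouts 1 and 2, against 185 and 187 CPM in controls 1 and 2. The controls lay between the knockouts, so the groups overlapped. Knockout over control, the log2 difference of Cdkn1b was -0.06 ± 0.14 (SE; edgeR adjusted p = 0.89), with a 95% interval of -0.39 to 0.28.

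Cdkn1a (ENSMUSG00000023067, chromosome 17, 29090976 to 29100727), which encodes p21, measured 107 and 80.9 CPM in knockouts 1 and 2, against 150.5 and 64.5 CPM in controls 1 and 2. Control 1 was the highest library and control 2 the lowest, 2.33-fold apart, with both knockouts between them. On the log2 scale the controls differed by 1.22, more than in 96.3% of tested genes in the same pair. For Cdkn1a the log2 fold change came to -0.19 ± 0.38 (edgeR adjusted p = 0.87) with an interval of -1.12 to 0.73. It was 0.54 without control 1 and -0.66 without control 2, so the sign of the difference depended on the control library. Exons of AC167363.2 on the other strand overlap those of Cdkn1a by 273 bases.

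The INK4 gene Cdkn2b (ENSMUSG00000073802, chromosome 4, 89306299 to 89311039), known as p15 and as a target induced by TGF-beta, was far less abundant. It measured 3.999 and 3.02 CPM in knockouts 1 and 2, against 5.99 and 2.10 CPM in controls 1 and 2, from 62 to 100 counts per library. The libraries fell in the same order as for Cdkn1a. The exact Poisson intervals of the controls, 4.87 to 7.28 CPM in control 1 and 1.61 to 2.69 CPM in control 2, did not overlap, so the controls differed by more than counting error. In the edgeR fit, Cdkn2b had a log2 fold change of -0.18 ± 0.52 (edgeR adjusted p = 0.91), 0.74 without control 1, -0.75 without control 2 and 0.017 without knockout 2, and 0.11 with limma-voom.

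Within each group, markers of differentiated and sebaceous cells were higher in the library where Cdkn1a and Cdkn2b were higher. The 7 interfollicular differentiation genes summed to 8182 and 3776 CPM in knockouts 1 and 2, and to 12501 and 4282 CPM in controls 1 and 2. All 7 were higher in number 1 than in number 2 in both groups. The 7 sebaceous gland genes summed to 492 and 348 CPM in knockouts 1 and 2 and 789 and 446 CPM in controls 1 and 2, and 6 in knockouts and 7 in controls were higher in number 1. Bulge keratinocyte markers were higher in number 1 among knockouts and in number 2 among controls, at 77792 and 68937 CPM in knockouts 1 and 2 and 62804 and 72531 CPM in controls 1 and 2. Other lists shared the pattern of the differentiation and sebaceous sums. T cell markers summed to 25.1 and 20.9 CPM in knockouts 1 and 2 and 20.1 and 16.1 CPM in controls 1 and 2. Cycling cell markers summed to 41.8 and 33.6 CPM in knockouts 1 and 2 and 81.7 and 57.0 CPM in controls 1 and 2. Sums of the hair germ, endothelial, fibroblast, myeloid and melanocyte lists did not share it. The part of any of these cells in the Cdkn1a and Cdkn2b levels was not tested.

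**Figure D2:**
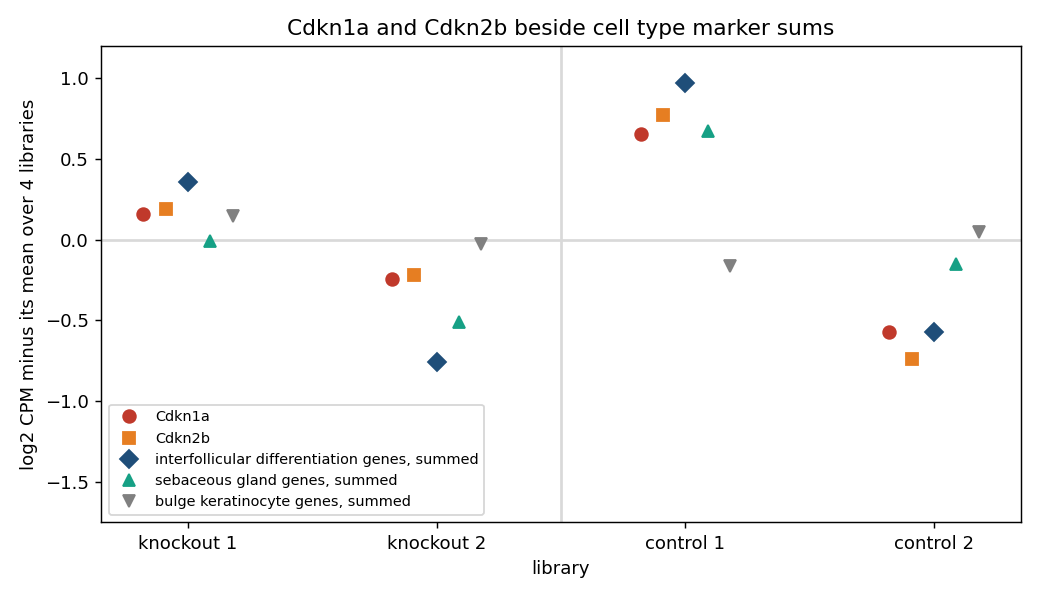
Log2 CPM, less its mean over the 4 libraries, of Cdkn1a, Cdkn2b and the summed markers of interfollicular differentiation (7 genes), sebaceous gland (7 genes) and bulge keratinocytes (10 genes), by library. Cdkn1a, Cdkn2b and the differentiation and sebaceous sums are higher in number 1 than in number 2 within each group, and highest in control 1.

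Cdkn2c (ENSMUSG00000028551, chromosome 4, 109660876 to 109667189), an INK4 inhibitor known as p18, measured 13.3 and 19.4 CPM in knockouts 1 and 2, against 15.7 and 9.55 CPM in controls 1 and 2. Knockout 2 was highest and control 2 lowest, and the groups overlapped. Cdkn2c had a log2 fold change of 0.38 ± 0.31 (edgeR adjusted p = 0.66), with an interval of -0.37 to 1.14, and its sign was the same in each of the 12 alternative fits. Its size rested on single libraries, at 0.084 without knockout 2, 0.083 without control 2, 0.63 without knockout 1 and 0.78 without control 1. Cdkn2a, which shares its locus on chromosome 4 with Cdkn2b and encodes p16 and p19Arf, had 0 counts in each library. A count of 0 allows up to 3 counts, or 0.138 and 0.144 CPM in knockouts 1 and 2 and 0.180 and 0.102 CPM in controls 1 and 2.

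Of the D cyclins, Ccnd2 was lower in both knockouts without passing the test over all genes, while Ccnd1 and Ccnd3 overlapped between the groups. Ccnd2 (ENSMUSG00000000184, chromosome 6, 127125162 to 127152193), a D cyclin that FOXO factors are known to repress, measured 112 and 91.2 CPM in knockouts 1 and 2, against 139.8 and 146 CPM in controls 1 and 2. The controls were 1.04-fold apart and the knockouts 1.23-fold, and both knockouts lay below both controls. The log2 fold change was -0.49 ± 0.14, a ratio of 0.712 with a 95% interval of 0.563 to 0.901, and the edgeR adjusted p was 0.43. Over the 12 alternative fits it ran from -0.65 to -0.32 with adjusted p from 0.0499 to 0.98.

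The adjusted p of 0.0499 for Ccnd2 came from edgeR without a filter on low counts, where spread was pooled fully over genes and 1.79% of genes were called. Taking out the trend on exon length and GC content gave the smallest difference, -0.32 (edgeR adjusted p = 0.55). Exons of Ccnd2 span 9409 bases, the longest of the 10 members. DESeq2 gave -0.47 ± 0.19 (adjusted p = 0.35). Exons of 2 antisense genes overlap those of Ccnd2 by 368 and 372 bases, and reads of these cannot be told apart where counting ignores strand. The 6 fibroblast and dermal papilla markers summed to 136 and 140.2 CPM in knockouts 1 and 2. In controls 1 and 2 the sums were 183 and 233 CPM. Of these 6 markers, 2 were lower in both knockouts, against 23.6% of all tested genes, and 1 was higher, against 21.3%. The part of these cells in the Ccnd2 level was not tested.

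Ccnd1 (ENSMUSG00000070348, chromosome 7, 144929931 to 144939925), the D cyclin best known as a WNT and growth factor target, measured 141 and 115 CPM in knockouts 1 and 2, against 131 and 141 CPM in controls 1 and 2. Knockout 2 was the lowest, and knockout 1 lay between the controls. Its log2 fold change was -0.09 ± 0.14 (edgeR adjusted p = 0.83), with an interval of -0.43 to 0.25. Its exons overlap the gene LTO1 on the other strand by 1100 bases.

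Ccnd3 (ENSMUSG00000034165, chromosome 17, 47505051 to 47599691), the D cyclin widespread in differentiated tissues, measured 186 and 175 CPM in knockouts 1 and 2, against 152 and 176 CPM in controls 1 and 2. Knockout 1 was highest and control 1 lowest. Ccnd3 had a log2 fold change of 0.14 ± 0.13 (edgeR adjusted p = 0.70), and its sign was the same in the 12 alternative fits, which ran from 0.036 to 0.31. Exons of Bysl on the other strand overlap those of Ccnd3 by 361 bases.

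Among the pocket proteins, Rbl1 was lower and Rbl2 slightly higher in both knockouts than in both controls, while Rb1 overlapped between the groups. Rbl1 (ENSMUSG00000027641, chromosome 2, 157145893 to 157204534) encodes p107, the pocket protein of cycling cells, and carries the E2F motif printed above. It measured 17.1 and 10.9 CPM in knockouts 1 and 2, against 19.99 and 19.91 CPM in controls 1 and 2. The controls were nearly equal and knockout 2 was the lowest. The exact Poisson interval of knockout 1, 15.4 to 18.9 CPM, overlapped those of control 1 (17.9 to 22.3 CPM) and control 2 (18.3 to 21.6 CPM). Rbl1 had a log2 fold change of -0.51 ± 0.24 (edgeR adjusted p = 0.50), with an interval of -1.11 to 0.08. Without knockout 2 it was -0.23 and without knockout 1 it was -0.88, so the size rested largely on knockout 2.

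Markers of cycling cells were lower in the same libraries. Their 12 genes summed to 41.8 and 33.6 CPM in knockouts 1 and 2, against 81.7 and 57.0 CPM in controls 1 and 2. Each of the 12 genes gave a negative log2 fold change (median -0.93), and in 11 both knockouts lay below both controls, as in 23.6% of tested genes. No gene of the list passed the edgeR threshold over all genes, and 5 had an unadjusted p under 0.05, against 10.7% of tested genes. The controls differed in this sum and were nearly equal in Rbl1. The part of cycling cells in the Rbl1 and Ccnd2 levels was not tested.

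Rb1 (ENSMUSG00000022105, chromosome 14, 73183673 to 73325822), the retinoblastoma gene, measured 34.9 and 38.4 CPM in knockouts 1 and 2, against 36.4 and 39.3 CPM in controls 1 and 2. Libraries of a group were at most 1.10-fold apart, and the groups overlapped. For Rb1, the fold change on the log2 scale was -0.05 ± 0.13 (edgeR adjusted p = 0.91), with an interval of -0.37 to 0.28, and it was 0.047 once the trend on length and GC content was taken out. Its exons overlap those of Rcbtb2 by 488 bases and of Lpar6 by 408 bases on the other strand.

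Rbl2 (ENSMUSG00000031666, chromosome 8, 91070057 to 91123844) encodes p130, the pocket protein of resting cells and a core part of the repressive DREAM complex. It measured 87.4 and 92.8 CPM in knockouts 1 and 2, against 81.8 and 85.5 CPM in controls 1 and 2. Both knockouts lay above both controls, as in 21.3% of tested genes, by a small margin. The exact Poisson intervals of knockout 1 (83.5 to 91.4 CPM) and control 2 (82.2 to 88.9 CPM) overlapped. Rbl2 differed by a log2 fold change of 0.11 ± 0.11 (edgeR adjusted p = 0.74), with an interval of -0.17 to 0.38. Exons of Aktip overlap those of Rbl2 by 693 bases on the other strand, and those of Gm45464 by 892.

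**Figure D3:**
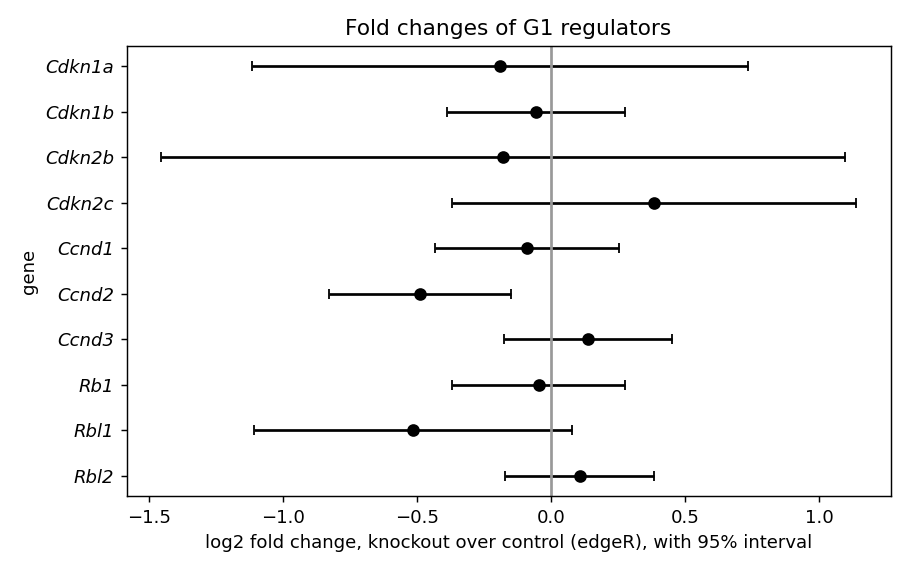
Log2 fold change (knockout over control) of each gene from the edgeR fit over all 14259 genes, with its 95% interval from the fitted spread. The interval of Ccnd2 (-0.83 to -0.15) lies below 0 before adjustment over genes, those of the other 9 cross 0, and those of Cdkn1a and Cdkn2b are among the widest.

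Levels were compared between genes as CPM per kilobase of exon. In order of the mean over all 4 libraries, Cdkn1b stood at 40.02, Cdkn1a at 28.3, Ccnd1 at 28.1, Ccnd3 at 19.6, Ccnd2 at 13.01 and Rbl2 at 11.5. Rb1 followed at 6.19, Cdkn2c at 5.39, Rbl1 at 2.83 and Cdkn2b at 2.72 CPM per kilobase. The range of Cdkn1a, 22.8 to 30.1 in knockouts and 18.1 to 42.4 in controls, overlapped those of its neighbours Cdkn1b and Ccnd1. Libraries also overlapped between Ccnd2 and Rbl2, between Rb1 and Cdkn2c, and between Rbl1 and Cdkn2b. Ccnd1 lay above Ccnd3, Ccnd3 above Ccnd2, Rbl2 above Rb1, and Cdkn2c above Rbl1, with no overlap between libraries. The order of the first 4 genes depended on the length used. Per kilobase of the longest transcript, Cdkn1a came first at 48.4, then Ccnd3 at 44.7, Cdkn1b at 40.02 and Ccnd1 at 35.3, and the places of the other 6 genes were the same.

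Shares within a family do not depend on the library scaling. They are parts of the same sum, so a lower share of a gene raises those of the others. Ccnd2 made up 18.9% and 17.9% of the summed D cyclin level per kilobase in knockouts 1 and 2, against 24.8% and 23.7% in controls 1 and 2. The difference was -5.78 percentage points, with means of 18.4% ± 0.7 in knockouts and 24.2% ± 0.8 in controls (SD, n = 2 each). An exact permutation test, two-sided, gave p = 0.333, the smallest that 2 against 2 libraries allow. Ccnd3 held 33.6% and 36.9% in knockouts and 28.9% and 30.6% in controls, though its CPM overlapped between the groups. Ccnd1 kept a nearly even share of 47.5% and 45.2% in knockouts and 46.4% and 45.8% in controls. With the length of the longest transcript in place of all exons, Ccnd3 passed Ccnd1, at 46.5% and 50.1% of the family in knockouts and 40.8% and 42.9% in controls, and Ccnd2 differed by -5.75 points.

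Rbl2 was the largest pocket protein share, at 57.2% and 60.0% in knockouts 1 and 2 and 53.5% in each control. Rbl1 held 14.1% and 8.86% in knockouts and 16.5% and 15.7% in controls, a difference of -4.64 points. Rb1 held 28.7% and 31.2% in knockouts and 29.9% and 30.8% in controls. The summed level of the pocket proteins was nearly the same in all 4 libraries, at 20.2 and 20.5 CPM per kilobase in knockouts and 20.2 and 21.2 in controls.

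In the CDK inhibitor family, Cdkn1a and Cdkn1b together made up most of the level. Cdkn1a held 40.9% and 30.3% in knockouts 1 and 2 and 45.5% and 28.3% in controls 1 and 2. Cdkn1b held 48.4% and 57.2% in knockouts and 43.6% and 63.9% in controls. By the longest transcript, Cdkn1a held 54.0% and 42.3% in knockouts and 58.5% and 40.1% in controls, and Cdkn1b held 37.4% and 46.8% in knockouts and 32.8% and 52.9997% in controls. Cdkn1a was then the larger share in knockout 1 and control 1, while in knockout 2 and control 2 Cdkn1b was. The ratio of summed CDK inhibitors to summed D cyclins, both per kilobase, was 1.16 and 1.39 in knockouts 1 and 2, against 1.55 and 0.979 in controls 1 and 2. Controls held both the highest and the lowest ratio, and the exact permutation test gave p = 1 (two-sided; the smallest possible is 0.333).

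**Figure D4:**
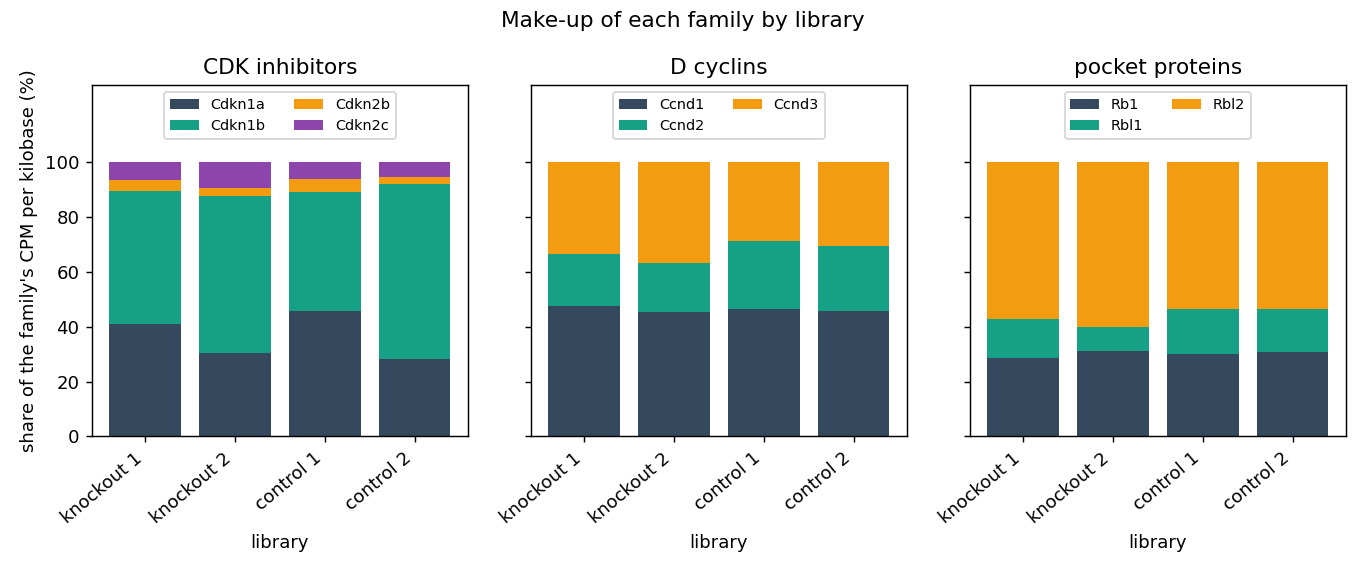
Share of each gene in its family's summed CPM per kilobase of exon (%), stacked by library, knockouts left of controls. Ccnd2 takes 17.9% to 18.9% of the D cyclins in knockouts and 23.7% to 24.8% in controls, while the shares of Cdkn1a and Cdkn1b differ most between the 2 controls.

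Likeness among the 10 members was measured as the Euclidean distance of their centred log2 CPM over the 4 libraries. The closest pair was Cdkn1b and Rb1, at a distance of 0.12, and the farthest was Cdkn2c and Rbl1, at 1.36. Cdkn1a and Cdkn2b, a CIP/KIP and an INK4 gene, were 0.18 apart. A short distance between genes that hardly vary is a statement about both being level.

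Other genes were taken from lists of 10 groups, which hold G1 pathway genes, p53 and E2F target genes and markers of cycling cells. None of them passed the edgeR threshold over all genes, and DESeq2 and limma-voom called none. Without a filter on low counts edgeR called 7 of them (Ccna2, E2f2, Foxo1, Foxo3, Uhrf1, Mki67 and Top2a), against 1.79% of all genes. Foxo1 measured 35.3 and 45.4 CPM in knockouts 1 and 2, against 93.9 and 45.8 CPM in controls 1 and 2. Among the 2 other CDK inhibitors tested, Cdkn1c, the imprinted p57 gene, measured 9.93 and 15.9 CPM in knockouts 1 and 2, against 8.38 and 8.16 CPM in controls 1 and 2 (log2 fold change 0.64 ± 0.27, edgeR adjusted p = 0.47). Knockout 2 was well above the others, and the value was 0.26 without it. Cdkn2d, the fourth INK4 gene, gave -0.10 ± 0.17.

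Of 8 genes of G1 kinases and their activators, 6 were above 0 and 2 below, with a median of 0.09. Cdk4, the partner of D cyclins, measured 155 and 142 CPM in knockouts and 140.1 and 155 CPM in controls, a log2 fold change of 0.01 ± 0.12. Cdk6, the other partner, gave -0.19 ± 0.14, Cdc37, a co-chaperone of CDK4, 0.13 ± 0.12, and Mnat1, an assembly factor of the CDK-activating kinase, 0.33 ± 0.13. Taking out the trend on length and GC content gave 0.034 for Cdk6.

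Of the 3 E and A cyclins, 1 was above 0 and 2 below, with a median of -0.18, which was 0.056 without knockout 2 and -0.49 without knockout 1. Ccna2, the A cyclin of S and G2 phase, measured 4.597 and 2.97 CPM in knockouts 1 and 2, against 9.997 and 6.27 CPM in controls 1 and 2 (log2 fold change -1.09 ± 0.36, edgeR adjusted p = 0.43). The E cyclins Ccne1 and Ccne2 gave -0.18 ± 0.43 and 0.05 ± 0.38, at 1.01 to 2.87 CPM over the 4 libraries.

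Of the 10 E2F and DP factors, 3 were above 0 and 7 below, with a median of -0.12. E2f2, an activator E2F, gave -1.03 ± 0.34 (edgeR adjusted p = 0.43), with 5.75 and 4.17 CPM in knockouts and 12.8 and 7.55 CPM in controls. E2f4, the repressor E2F that pairs with Rbl2, gave 0.20 ± 0.14, and the dimer partners Tfdp1 and Tfdp2 gave 0.04 ± 0.12 and -0.02 ± 0.18. Of 7 DREAM and MuvB genes, 2 were above 0 and 5 below (median -0.04). Mybl2, which replaces pocket proteins on MuvB in cycling cells, gave -1.19 ± 0.42 (edgeR adjusted p = 0.43), while the core subunits Lin37 and Rbbp4 gave -0.05 ± 0.16 and 0.24 ± 0.12.

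E2F target genes of S phase were mixed, with 6 of 16 above 0 and 10 below and a median of -0.19. Uhrf1, which maintains DNA methylation, gave -0.92 ± 0.29, and the helicase subunit Mcm2 gave -0.43 ± 0.14 (edgeR adjusted p = 0.43 for both). Pcna, the replication clamp, gave 0.15 ± 0.13, and Mcm6, of the same helicase as Mcm2, 0.31 ± 0.14. Among cycling cell markers, Top2a, a topoisomerase of dividing cells, gave -0.96 ± 0.24 and Mki67 -1.05 ± 0.27 (edgeR adjusted p = 0.43 for both). In an edgeR fit blocked on the number in the sample title, which called 0.743% of tested genes, Top2a passed (adjusted p = 0.038). No label says that equal numbers mark a pair.

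Genes that turn over inhibitors and cyclins had a median of 0.07, with 8 of 14 above 0 and 6 below. The ubiquitin ligase subunits Cul1, Skp1a and Ddb1 gave 0.26 ± 0.12, 0.14 ± 0.20 and 0.09 ± 0.12, and Gsk3b, a kinase that marks D cyclins for export and decay, -0.23 ± 0.12. Transcriptional inputs had a median of -0.01, with 8 of 16 above 0 and 8 below. Foxo3, a forkhead factor known to induce Cdkn1b, measured 90.5 and 118 CPM in knockouts 1 and 2, against 163 and 135 CPM in controls 1 and 2 (-0.52 ± 0.17, edgeR adjusted p = 0.43). Tcf7l2, a WNT effector, gave -0.35 ± 0.14, Ctnnb1, which encodes beta-catenin, 0.15 ± 0.12, and Trp63, the p53 relative of basal keratinocytes, -0.07 ± 0.13.

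The p53 target genes other than Cdkn1a had 10 of 16 above 0 and 6 below, with a median of 0.10. Perp, a desmosomal protein and p53 family target, measured 4719 and 5142 CPM in knockouts 1 and 2, against 3792 and 3298 CPM in controls 1 and 2 (0.48 ± 0.13, edgeR adjusted p = 0.43). Phlda3, an inhibitor of AKT signalling, gave 0.43 ± 0.16 (edgeR adjusted p = 0.43). Both knockouts lay above both controls in 6 of the 16 genes, against 21.3% of all tested genes, and below them in 3, against 23.6%. Cdkn1a, with the p53 element printed above, overlapped between the groups.

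**Figure D5:**
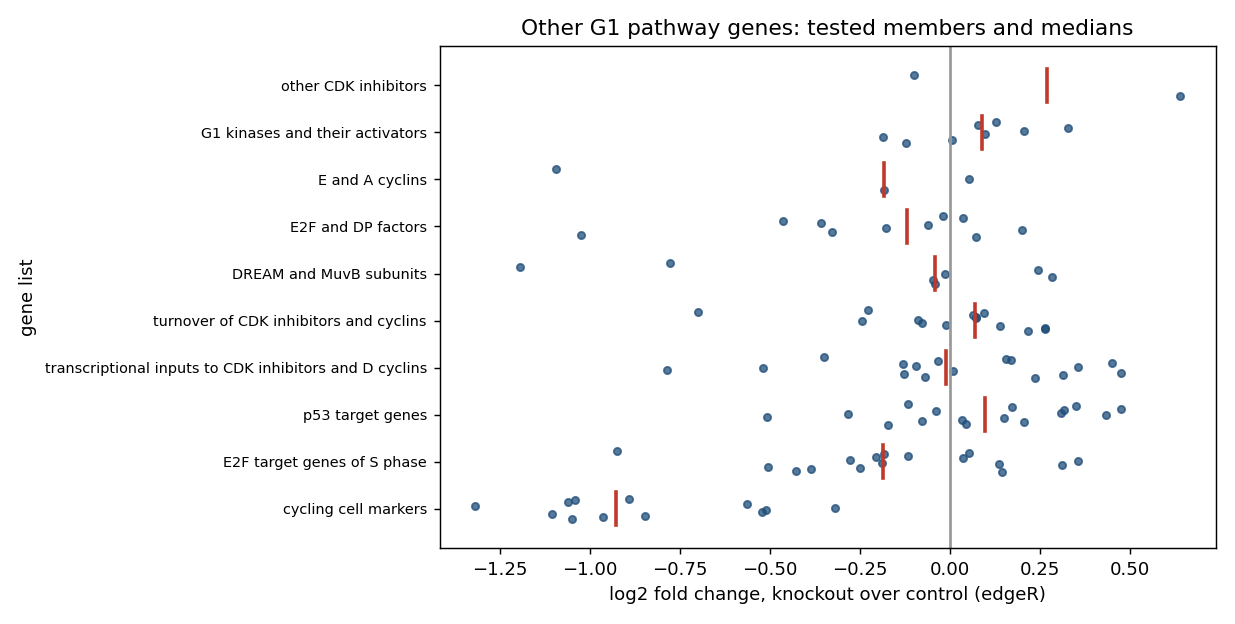
Log2 fold change (knockout over control) of each tested gene in the 10 other lists, with each list's median as a red bar. The lists hold G1 pathway genes, p53 and E2F target genes and markers of cycling cells. Cycling cell markers lie below 0, with a median of -0.93, and the medians of the other 9 lists lie between -0.19 and 0.27.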

How the data were processed

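RNA sequencing counts of 4 bulge cell samples were analysed, 2 knockout and 2 control. The authors deposited raw counts per gene (55536 genes, 1 column per sample). Per the submitters' processing notes, Trim Galore 0.6.0, cutadapt, FastQC, STAR 2.7.0e and DESeq2 1.26.0 were used with GRCm38 (mm10); per the labels, libraries were directional and polyA-selected. Which program counted the reads, with which strand option and annotation, is not stated in the sources used here. All 55536 identifiers matched GENCODE M21 (GRCm38), which gave symbols, coordinates and exon lengths.

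Genes kept by filterByExpr (14259) were compared with edgeR 4.0.16 in R 4.3.3 (TMM normalization, robust quasi-likelihood test, no covariates, Benjamini-Hochberg adjustment over all tested genes, threshold 0.05). DESeq2 1.42.0 and limma 3.58.1 were alternatives. Log2 CPM used a prior count of 2, and 95% intervals used the fitted degrees of freedom. The test was checked on simulated counts. Poisson intervals and floors cover counting error only. The members and lists were chosen with earlier results of these data known. All 10 members were named; from the other lists, genes past the threshold or, with none, the 2 of highest mean CPM and the 2 of smallest p. The lists of hair germ, fibroblast, T cell, myeloid and melanocyte markers summed to at most 315 CPM in a library.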

Additional observations from a re-analysis of the deposited data

How the results depend on the processing

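The 0 calls among the members held with RLE and upper-quartile normalization, a stricter filter (50 counts or more in 2 libraries or more), DESeq2, limma-voom, the replicate block, correction for length and GC content, and with each library left out. Without a filter on low counts 1 member (Ccnd2) was called, with 7 genes of the other lists and 430 of all genes, where edgeR pooled spread fully over genes. Over all genes, 1 was called in the edgeR fit, 80 with DESeq2, 2 after correction for length and GC content, and from 1 to 65 with a library left out (65 without knockout 1, 4 without knockout 2 and 2 without control 1). With the replicate block 106 genes were called, with 0 members and 1 gene of the other lists (Top2a). The labels give no pairing, and same-numbered deviations correlated at 0.12.

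In fits that kept all 4 libraries, signs turned for values near 0, and for Cdk6 (-0.19 in the edgeR fit) and Cdkn2b (-0.18). The median of all tested genes was -0.02 in the edgeR fit and 0.04 once corrected for length and GC content. Corrected for length and GC content, log2 fold changes were 0.047 for Rb1, 0.034 for Cdk6, 0.20 for Tfdp2 and 0.083 for Trp63. Cdk4 gave -0.00027 without a filter and -0.0032 with the stricter filter, and Cdkn2b gave 0.11 with limma-voom. By the longest transcript, the Ccnd1 share differed by -0.73 points and the ratio of inhibitors to D cyclins by -0.037. The cause was not tested.

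With each library left out, log2 fold changes ran from -0.66 to 0.54 for Cdkn1a, -0.20 to 0.072 for Cdkn1b, -0.75 to 0.74 for Cdkn2b, -0.25 to 0.051 for Ccnd1 and -0.11 to 0.033 for Rb1. They ran from -0.065 to 0.11 for Cdk4, -0.24 to 0.41 for Ccne2, -0.49 to 0.073 for Ccne1, -0.27 to 0.19 for Tfdp2, -0.085 to 0.38 for Skp1a and -0.16 to 0.014 for Trp63. Share differences ran from -9.88 to 7.37 points for Cdkn1a, -11.1 to 9.20 for Cdkn1b, -1.22 to 1.05 for Cdkn2b, -0.89 to 1.40 for Ccnd1 and -1.67 to 0.77 for Rb1. The ratio of inhibitors to D cyclins differed by -0.27 to 0.30. List medians ran from 0.065 to 0.44 for the other CDK inhibitors, 0.063 to 0.12 for G1 kinases, -0.49 to 0.056 for E and A cyclins, -0.16 to -0.087 for E2F and DP factors, -0.072 to 0.060 for DREAM genes, 0.0022 to 0.053 for turnover, -0.032 to 0.064 for transcriptional inputs, 0.092 to 0.14 for p53 targets, -0.35 to -0.062 for S phase targets and -1.08 to -0.61 for cycling markers. Corrected for length and GC content, the medians were 0.074 for DREAM genes and 0.066 for transcriptional inputs, both of the other sign. Cdkn2c, Ccnd2, Ccnd3, Rbl1 and Rbl2 had 1 sign in all 12 alternative fits. For Ccnd2, Rbl1 and Rbl2 the groups did not overlap, so leaving out a library could hardly turn the sign.

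Groups of 2 allow no test for a library that stands apart. At 62 to 100 counts, Cdkn2b is the member most limited by depth.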
